A study of Mus musculus with 20 samples.

Results

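The genes described here make sterols and fatty acids. They were chosen by their role in these pathways, and each was read from its brightest probe set on the log2 scale. Of 34 listed genes, 33 had a probe set with a single gene symbol (Acat2 had none), and all 33 passed the filter on dim probe sets that left 11968 genes in all. They comprise 17 measured sterol enzymes of 18 listed, 9 fatty acid enzymes, 4 regulators (Srebf1, Srebf2, Scap and Insig1) and 3 genes of sterol transport (Stard4, Abca1 and Abcg1).

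RNA of splenic B cells from C57BL/6 mice was measured on 20 arrays, in 10 groups of 2 arrays. The TAK1-deleted cells carried mb-1 with floxed TAK1 alleles (mb-1/TAK1f/f) and the wild type cells carried mb-1 with intact alleles (mb-1/TAK1+/+), so mb-1, a B lineage deleter, was common to both. Mice were 8 to 12 weeks old and labelled as of mixed sex, and B cells were left after magnetic depletion of CD43-bearing cells. Each genotype was taken unstimulated (0 h) and after 1, 3, 6 and 24 h with 10 µg/ml anti-IgM, which engages the antigen receptor of these cells; whether the 0 h cells had been cultured is not given, and neither is whether the 2 arrays of a group came from separate mice, so p-values measure only the spread between these samples. TAK1, the product of Map3k7, is a kinase that passes receptor signals to NF-κB and MAP kinases.

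Cholesterol is built from acetyl-CoA through mevalonate, isoprenoids, squalene and lanosterol. When membrane sterol is low, the protein Scap carries the factor SREBP2 (gene Srebf2) to the Golgi, where it is cut and goes on to switch on sterol genes; Insig1 holds Scap back and is itself a target. Sterol excess acts through LXR, which switches on the exporters Abca1 and Abcg1 and, through SREBP1 (gene Srebf1), fatty acid genes. Lymphocytes that are stimulated to divide need new membrane lipid, made by both pathways.

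The labelled cell type was checked against B cell markers, of which 9 of 10 had a probe set. All 9 read 9.66 or more in every array, where the median of all values was 7.45, and 8 of the 9 fell between 0 and 6 h in each genotype. The Map3k7 probe set did not separate the genotypes, with values of 10.40 to 10.76 in TAK1-deleted and 10.16 to 10.71 in wild type cells, and so does not check the deletion. The Y-linked gene Eif2s3y read 4.63 to 4.89 in TAK1-deleted and 8.32 to 9.82 in wild type arrays, so the genotypes were not matched for sex, and sex and genotype cannot be told apart. In bulk RNA, fewer cells of a type and less RNA per cell cannot be told apart either.

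Promoters of 26 of the 34 genes were found in the RefSeq table (build GRCm38.p6). The 250 bases before the gene start are shown for the genes on which the results below turn: the 3 sterol enzymes with the largest rise at 6 h in TAK1-deleted cells (Cyp51, Idi1 and Hmgcs1), the regulator that rose most (Insig1), the fatty acid enzyme that rose most at 3 h (Fasn) and the member with the largest difference between genotypes before stimulation (Fads2). Capitals mark TCACNCCAC, a sterol regulatory element, and CCAAT, the site bound by NF-Y, each in either orientation (CCAAT reads ATTGG when reversed).
Hmgcs1, chr13:119690101-119690350, forward strand: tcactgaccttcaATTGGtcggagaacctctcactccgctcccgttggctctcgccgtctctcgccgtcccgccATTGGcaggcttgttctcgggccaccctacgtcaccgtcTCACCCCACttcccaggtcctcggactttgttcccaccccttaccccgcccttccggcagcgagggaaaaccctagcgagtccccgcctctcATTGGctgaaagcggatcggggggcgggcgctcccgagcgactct
Idi1, chr13:8885356-8885605, forward strand: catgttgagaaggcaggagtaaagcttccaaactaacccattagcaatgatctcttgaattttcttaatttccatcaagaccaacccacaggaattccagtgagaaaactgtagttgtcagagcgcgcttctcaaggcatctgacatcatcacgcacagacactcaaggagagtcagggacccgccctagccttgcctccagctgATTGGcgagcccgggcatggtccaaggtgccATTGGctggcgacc
Cyp51, chr5:4104698-4104947, reverse strand: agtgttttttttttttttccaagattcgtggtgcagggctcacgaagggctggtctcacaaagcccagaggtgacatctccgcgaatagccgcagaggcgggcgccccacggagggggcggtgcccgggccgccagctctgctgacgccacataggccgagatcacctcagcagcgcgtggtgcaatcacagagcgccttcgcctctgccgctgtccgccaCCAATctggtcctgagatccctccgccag
Insig1, chr5:28071162-28071411, forward strand: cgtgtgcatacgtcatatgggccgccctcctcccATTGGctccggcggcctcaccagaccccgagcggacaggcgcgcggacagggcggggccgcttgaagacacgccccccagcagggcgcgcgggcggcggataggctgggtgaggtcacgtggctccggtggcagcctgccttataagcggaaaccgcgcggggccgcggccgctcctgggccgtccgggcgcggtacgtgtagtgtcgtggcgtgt
Fasn, chr11:120824548-120824797, reverse strand: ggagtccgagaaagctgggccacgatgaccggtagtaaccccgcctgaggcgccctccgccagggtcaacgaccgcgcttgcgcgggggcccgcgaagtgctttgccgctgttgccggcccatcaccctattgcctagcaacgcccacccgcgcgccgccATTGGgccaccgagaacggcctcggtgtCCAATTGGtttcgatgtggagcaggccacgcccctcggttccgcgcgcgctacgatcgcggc
Fads2, chr19:10101504-10101753, reverse strand: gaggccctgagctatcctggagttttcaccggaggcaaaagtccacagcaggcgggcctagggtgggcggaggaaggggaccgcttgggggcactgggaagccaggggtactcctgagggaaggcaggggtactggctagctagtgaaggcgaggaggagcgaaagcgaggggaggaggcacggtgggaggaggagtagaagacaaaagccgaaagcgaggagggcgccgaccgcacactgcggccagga

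The sterol element letters stood once, in Hmgcs1, starting at position -137 from the gene start. Over windows of 250 bases before to 50 after the start, on either strand and in any window of a gene, TCACNCCAC was present in 1 of 15 sterol enzymes, 0 of 4 regulators and 0 of 6 fatty acid enzymes, and in 1.24% of all 32851 windows. The letters CCAAT were present in 14 of 15 sterol enzymes, 3 of 4 regulators and 3 of 6 fatty acid enzymes, against 37.4% of all windows. Hmgcs1 held 4 copies, of which 3 lie in the bases shown, Idi1 had 2, and Cyp51 and Insig1 had 1 each. Fasn held 3, of which a pair on opposite strands share bases. The window of Fads2 held neither these letters nor the sterol element. GGGCGG, the letters of an Sp1 site, were present in 14 of 15 sterol enzymes, 4 of 4 regulators and 2 of 6 fatty acid enzymes, against 35.7% of windows. The E-box CACGTG was present in 3 of 15, 2 of 4 and 1 of 6, against 7.15%. The LXR element, a direct repeat of AGGTCA with 4 bases between, was in none of the windows of these genes and in 0.0152% of all. Genes with several windows, such as Dhcr7, Srebf1 and Scap, had more chances of a match than the single windows of the background. A match is a run of letters and not a measured binding site.

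Stimulation was followed by a broad rise of the sterol genes in both genotypes. The fatty acid enzymes rose or fell by gene and time, at several times in shares near those of all genes. Values are log2 summaries of each probe set, so a change of 1 is a factor of 2. A gene is said to have risen, fallen or differed where its Benjamini-Hochberg adjusted p from limma, over all 11968 genes, was below 0.05, and every adjusted p below comes from that test. At 1 h, 11 of the 33 genes rose and 0 fell in TAK1-deleted cells, against 9.1% and 10.2% of all genes (19.3% in either direction), and 9 rose and 1 fell in wild type cells, against 10.6% and 13.9% (24.5%). At 3 h, 14 rose and 7 fell in TAK1-deleted cells, against 19.6% and 22.1% (41.7%), and 13 rose and 7 fell in wild type cells, against 20.9% and 23.2% (44.1%). At 6 h, 20 rose and 5 fell in TAK1-deleted cells, against 18.5% and 17.3% (35.8%), and 19 rose and 2 fell in wild type cells, against 24.1% and 19.1% (43.2%). At 24 h, 20 rose and 4 fell in TAK1-deleted cells, against 14.9% and 12.7% (27.6%), and 23 rose and 4 fell in wild type cells, against 23.6% and 20.2% (43.8%). With the replicate number in the labels as a block in the fit, which compares arrays of the same number, the 1 h counts in either direction were 17 in TAK1-deleted and 18 in wild type cells, against 36.3% and 43.2% of all genes.

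**Figure D1:**
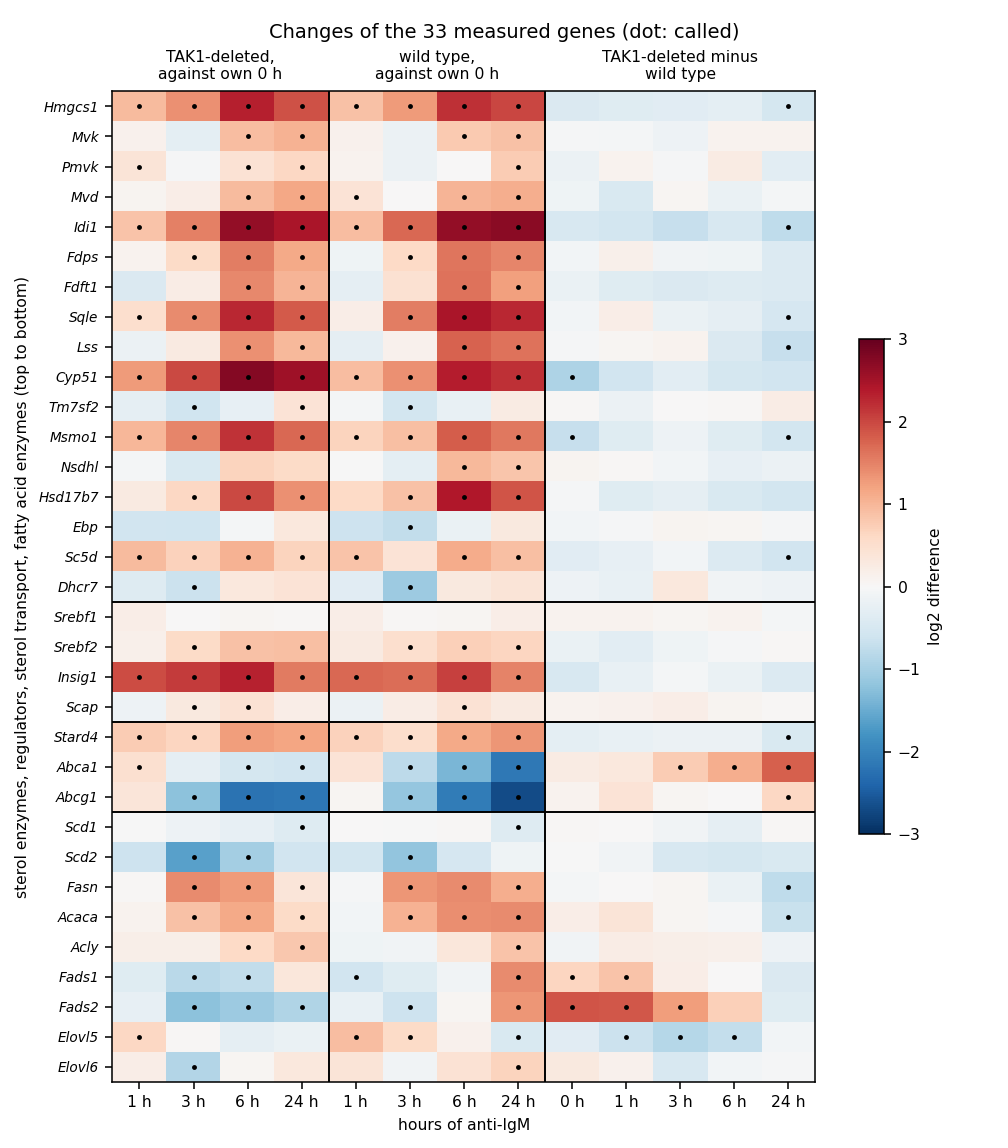
Heat map of log2 changes of the 33 genes (rows, by role) against each genotype's own 0 h at 1, 3, 6 and 24 h, and of the difference TAK1-deleted minus wild type at each time (right block). Red is higher, blue is lower, and a dot marks an adjusted p below 0.05. The sterol enzymes at the top are red at 6 h in both genotypes (13 of 17 rose in each), and the right block has most dots at 24 h (11 genes).

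Of the 17 sterol enzymes, 7, 8, 13 and 14 rose at 1, 3, 6 and 24 h in TAK1-deleted cells, and 6, 7, 13 and 14 did so in wild type cells. Those that rose in both genotypes numbered 5, 7, 12 and 13, counts for which the share of all genes is not given. The median change of the 17 at 6 h was 1.36 in TAK1-deleted and 1.60 in wild type cells, where the median of all genes was 0.06 and 0.05. At 24 h it was 1.04 in TAK1-deleted and 1.23 in wild type cells, with 0.04 and 0.07 for all genes. The mean level was highest at 6 h for 11 of the 17 in TAK1-deleted and 10 of 17 in wild type cells, and at 24 h for the others.

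Hmgcs1 makes HMG-CoA, an early step of the pathway, by adding acetyl-CoA to the product of the thiolase step. Hmgcs1 read 8.81 and 8.62 at 0 h, 9.81 and 9.51 at 1 h, 10.17 and 10.03 at 3 h, 10.98 and 11.12 at 6 h, then 10.77 and 10.51 at 24 h in TAK1-deleted cells. Its values in wild type cells were 9.24 and 9.08 at 0 h, 10.05 and 10.02 at 1 h, 10.42 and 10.47 at 3 h, 11.29 and 11.40 at 6 h, then 11.32 and 11.00 at 24 h. All stimulated arrays lay above the 0 h arrays of their genotype, and the highest values came at 6 h or 24 h. The change at 6 h was 2.33 ± 0.15 (adjusted p = 7.18e-09) in TAK1-deleted and 2.19 ± 0.15 (adjusted p = 1.12e-08) in wild type cells (log2 ± SE, 2 arrays a group). It had risen by 1 h, by 0.94 and 0.88, and these calls held in every alternative setting tried.

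Idi1 makes dimethylallyl pyrophosphate, a building block of isoprenoids. It read 8.33 and 7.78 at 0 h, 9.22 and 8.61 at 1 h, 9.66 and 9.48 at 3 h, 10.64 and 10.75 at 6 h, then 10.60 and 10.40 at 24 h in TAK1-deleted cells. Wild type arrays had 8.63 and 8.44 at 0 h, 9.68 and 9.26 at 1 h, 10.34 and 10.18 at 3 h, 11.06 and 11.27 at 6 h, then 11.49 and 11.01 at 24 h. The 0 h values lay below those at 1, 3, 6 and 24 h in both genotypes. The rise at 6 h was 2.64 ± 0.22 (adjusted p = 2.1e-07) in TAK1-deleted and 2.63 ± 0.22 (adjusted p = 1.42e-07) in wild type cells, and its other probe set changed by 2.68 and 2.62. The 1 h rise in TAK1-deleted cells, 0.86 ± 0.22, was not called without replicate 1 of 1 h (adjusted p = 0.155) or replicate 2 of 0 h (0.141), and that in wild type cells, 0.93 ± 0.22, was not called without replicate 1 of 1 h (0.0632).

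Sqle, squalene epoxidase, adds the first oxygen of the sterol. TAK1-deleted arrays had Sqle at 8.46 and 8.23 at 0 h, 8.88 and 8.80 at 1 h, 9.84 and 9.68 at 3 h, 10.74 and 10.49 at 6 h, then 10.31 and 10.06 at 24 h. Sqle in wild type arrays was at 8.63 and 8.23 at 0 h, 8.72 and 8.55 at 1 h, 9.98 and 9.95 at 3 h, 10.96 and 10.82 at 6 h, then 10.78 and 10.63 at 24 h. Values at 3, 6 and 24 h were clear of 0 h in both genotypes, whereas at 1 h the lower wild type array lay within its 0 h range. At 6 h Sqle had risen by 2.27 ± 0.15 (adjusted p = 1.71e-08) in TAK1-deleted and 2.46 ± 0.15 (adjusted p = 6.01e-09) in wild type cells. The rise at 1 h in TAK1-deleted cells, 0.50 ± 0.15 (adjusted p = 0.0323), was not called without replicate 2 of 0 h (adjusted p = 0.202), replicate 1 of 1 h (0.143) or replicate 2 of 1 h (0.0891).

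Cyp51, the lanosterol demethylase, had the largest change of the sterol enzymes in TAK1-deleted cells. It read 7.69 and 7.33 at 0 h, 9.13 and 8.45 at 1 h, 9.53 and 9.47 at 3 h, 10.20 and 10.33 at 6 h, then 10.13 and 9.95 at 24 h there. Wild type cells had Cyp51 at 8.56 and 8.29 at 0 h, 9.37 and 9.35 at 1 h, 9.79 and 9.82 at 3 h, 10.72 and 10.84 at 6 h, then 10.74 and 10.49 at 24 h. No stimulated array overlapped 0 h in either genotype. The rise at 6 h was 2.76 ± 0.19 (adjusted p = 1.71e-08) in TAK1-deleted and 2.36 ± 0.19 (adjusted p = 6.89e-08) in wild type cells. At 1 h it was already 1.28 ± 0.19 (adjusted p = 0.000115) in TAK1-deleted and 0.93 ± 0.19 (adjusted p = 0.00151) in wild type cells.

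Msmo1, a sterol methyl oxidase acting after Cyp51, followed the same course. Its TAK1-deleted values were 8.90 and 8.64 at 0 h, 9.93 and 9.60 at 1 h, 10.27 and 10.18 at 3 h, 10.91 and 10.97 at 6 h, then 10.61 and 10.35 at 24 h. The wild type values were 9.56 and 9.38 at 0 h, 10.30 and 9.97 at 1 h, 10.32 and 10.43 at 3 h, 11.31 and 11.28 at 6 h, then 11.18 and 10.90 at 24 h. The 0 h arrays were the lowest of each genotype. Msmo1 rose at 6 h by 2.17 ± 0.16 (adjusted p = 3.91e-08) in TAK1-deleted and 1.82 ± 0.16 (adjusted p = 1.72e-07) in wild type cells.

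Hsd17b7, a sterol ketoreductase, was first called at 3 h in both genotypes. In TAK1-deleted arrays it was at 8.96 and 8.41 at 0 h, 9.13 and 8.77 at 1 h, 9.58 and 9.03 at 3 h, 10.76 and 10.56 at 6 h, then 10.13 and 9.96 at 24 h. Wild type Hsd17b7 was at 8.93 and 8.50 at 0 h, 9.41 and 9.22 at 1 h, 9.78 and 9.39 at 3 h, 11.15 and 11.08 at 6 h, then 10.77 and 10.42 at 24 h. The 1 h and 0 h arrays overlapped in TAK1-deleted cells, and by 6 h the groups were well apart in both genotypes. Its rise at 6 h was 1.98 ± 0.23 (adjusted p = 5.07e-06) in TAK1-deleted and 2.40 ± 0.23 (adjusted p = 4.34e-07) in wild type cells. The smaller rise at 3 h, 0.62 ± 0.23 in TAK1-deleted and 0.87 ± 0.23 in wild type cells, was not called without replicate 1 of 3 h (adjusted p = 0.328 and 0.071) or replicate 2 of 0 h (0.329 and 0.069).

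**Figure D2:**
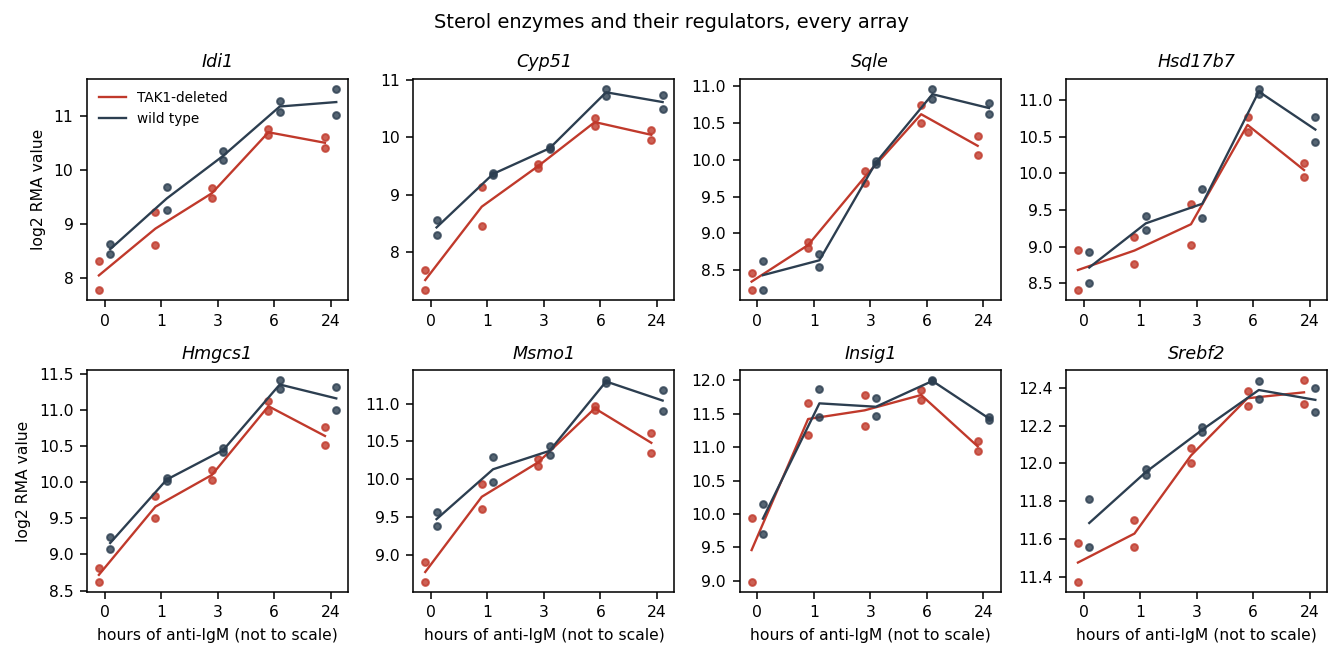
Log2 RMA value of 6 sterol enzymes and the regulators Insig1 and Srebf2 in every array against hours of anti-IgM (times not to scale); points are arrays, lines join the mean of 2, TAK1-deleted in red and wild type in blue. All 8 genes are higher at 6 h than at 0 h in every array. For all but Srebf2 the 24 h arrays of the TAK1-deleted cells lie below those of the wild type. Of these genes, only Hmgcs1, Idi1, Sqle and Msmo1 were called between the genotypes at 24 h, and each of these calls was lost without wild type replicate 1 of 24 h. The share of all genes with arrays apart is not given.

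Other sterol enzymes were as follows. Among the mevalonate kinases, Mvk rose at 6 h by 0.94 in TAK1-deleted and 0.80 in wild type cells, and Mvd, the decarboxylase that follows, by 0.95 and 1.02. Pmvk, the kinase between them, was called at 24 h at 0.63 ± 0.13 in TAK1-deleted and 0.75 ± 0.13 in wild type cells; at 6 h it read 0.44 ± 0.13 and 0.02 ± 0.13, and the first of these calls was lost without replicate 1 of 0 h (adjusted p = 0.073) or replicate 2 of 6 h (0.158). At 1 h Pmvk was called in TAK1-deleted cells at 0.38 ± 0.13 (adjusted p = 0.0462), lost without any 1 of the 4 arrays (adjusted p up to 0.242), and Mvd in wild type cells at 0.40 ± 0.13 (adjusted p = 0.0331), lost without either 0 h array (0.158 and 0.0721) or replicate 2 of 1 h (0.252). The farnesyl pyrophosphate synthase Fdps rose at 6 h by 1.54 in TAK1-deleted and 1.60 in wild type cells. Squalene synthase, Fdft1, rose by 1.44 and 1.64 at the same time, and its other probe set changed by 1.62 and 1.94.

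Another 4 fell at 3 h in both genotypes or were called at no time in TAK1-deleted cells. Dhcr7, which makes cholesterol from its last precursor in one branch, fell at 3 h by 0.64 ± 0.18 in TAK1-deleted cells (adjusted p = 0.0108) and fell by 1.10 ± 0.18 in wild type cells (0.000146), and was not called at 6 or 24 h. Without replicate 2 of 3 h the TAK1-deleted value was not called (adjusted p = 0.209), nor was it without replicate 1 of 0 h (0.0983). Tm7sf2, a sterol reductase, also fell at 3 h, at -0.60 ± 0.14 in TAK1-deleted and -0.56 ± 0.14 in wild type cells. These calls were lost without replicate 1 of 0 h in the TAK1-deleted cells and replicate 2 of 3 h in the wild type. At 24 h Tm7sf2 was called higher in TAK1-deleted cells, by 0.42, a call lost without replicate 2 of 0 h or either 24 h array. Ebp, a sterol isomerase on the X chromosome, ran from -0.59 to 0.32 in TAK1-deleted cells without a call; its one call, at 3 h in wild type cells, -0.74 ± 0.28 (adjusted p = 0.0391), was lost without any 1 of the 4 arrays in that comparison. Nsdhl, an X-linked sterol dehydrogenase, read 0.67 ± 0.27 (adjusted p = 0.0688) at 6 h in TAK1-deleted and 0.98 ± 0.27 (adjusted p = 0.00806) in wild type cells; with the replicate block the TAK1-deleted value was called too (adjusted p = 1.5e-05), and the wild type value was lost without replicate 1 of 6 h (0.0761) or replicate 2 of 0 h (0.0795).

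Among the regulators, Insig1 moved first and most. The TAK1-deleted arrays had 9.93 and 8.99 at 0 h, 11.66 and 11.17 at 1 h, 11.78 and 11.32 at 3 h, 11.85 and 11.70 at 6 h, then 11.08 and 10.94 at 24 h. In wild type arrays Insig1 was at 10.15 and 9.71 at 0 h, 11.86 and 11.44 at 1 h, 11.74 and 11.47 at 3 h, 12.00 and 11.98 at 6 h, then 11.45 and 11.40 at 24 h. The 0 h pair in TAK1-deleted cells differed by 0.95, the widest gap between the 2 arrays of any group for any of the 33 genes, and still lay below every stimulated array. Insig1 rose within 1 h by 1.96 ± 0.26 (adjusted p = 4.43e-05) in TAK1-deleted and 1.72 ± 0.26 (adjusted p = 0.000117) in wild type cells, and at 6 h by 2.32 ± 0.26 and 2.06 ± 0.26.

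Srebf2 rose by less, and later. Its TAK1-deleted arrays read 11.58 and 11.37 at 0 h, 11.70 and 11.56 at 1 h, 12.08 and 12.00 at 3 h, 12.38 and 12.30 at 6 h, then 12.44 and 12.31 at 24 h. Wild type Srebf2 read 11.81 and 11.56 at 0 h, 11.97 and 11.94 at 1 h, 12.19 and 12.17 at 3 h, 12.44 and 12.34 at 6 h, then 12.40 and 12.27 at 24 h. The 3, 6 and 24 h arrays lay above the 0 h arrays in both genotypes. Its rise was 0.87 ± 0.11 (adjusted p = 9.55e-06) at 6 h in TAK1-deleted and 0.70 ± 0.11 (adjusted p = 5.41e-05) in wild type cells. Scap rose at 6 h by 0.42 ± 0.11 in TAK1-deleted and 0.44 ± 0.11 in wild type cells, and the TAK1-deleted call was lost without replicate 1 of 6 h (adjusted p = 0.106). Srebf1 stayed between 9.55 and 9.89 in all 20 arrays and was not called at any time in either genotype.

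The transport genes split by direction. Stard4, which moves cholesterol within the cell, read 8.00 and 8.01 at 0 h, 8.88 and 8.65 at 1 h, 8.61 and 8.68 at 3 h, 9.23 and 9.27 at 6 h, then 9.29 and 9.07 at 24 h in TAK1-deleted cells. Wild type Stard4 was at 8.31 and 8.28 at 0 h, 9.10 and 8.89 at 1 h, 8.79 and 8.87 at 3 h, 9.43 and 9.43 at 6 h, then 9.78 and 9.48 at 24 h. Every stimulated array exceeded its 0 h arrays, and at 6 h the rise was 1.24 ± 0.13 (adjusted p = 2.14e-06) in TAK1-deleted and 1.14 ± 0.13 (adjusted p = 3.59e-06) in wild type cells.

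Abcg1, which exports cholesterol to lipoproteins, went the other way. It stood at 11.42 and 11.19 at 0 h, 11.70 and 11.63 at 1 h, 10.16 and 9.99 at 3 h, 9.21 and 8.98 at 6 h, then 9.30 and 8.996 at 24 h in TAK1-deleted arrays. In wild type arrays it stood at 11.29 and 11.09 at 0 h, 11.32 and 11.20 at 1 h, 10.09 and 9.96 at 3 h, 9.16 and 9.02 at 6 h, then 8.65 and 8.39 at 24 h. From 3 h on, all arrays were below all 0 h and 1 h arrays of their genotype. At 6 h Abcg1 fell by 2.21 ± 0.15 in TAK1-deleted cells (adjusted p = 1.52e-08) and fell by 2.10 ± 0.15 in wild type cells (2.02e-08).

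Abca1, the exporter to lipid-poor apolipoprotein A-I, differed between the genotypes. TAK1-deleted arrays had 10.68 and 10.68 at 0 h, 11.09 and 11.21 at 1 h, 10.20 and 10.62 at 3 h, 10.06 and 10.26 at 6 h, then 10.16 and 10.04 at 24 h. Wild type arrays of Abca1 had 10.43 and 10.44 at 0 h, 10.84 and 10.83 at 1 h, 9.55 and 9.76 at 3 h, 8.99 and 9.13 at 6 h, then 8.40 and 8.20 at 24 h. In wild type cells each later pair lay below the one before it from 3 h on, whereas the TAK1-deleted pair at 6 h overlapped both the 3 h and the 24 h pairs. At 24 h the change was -0.58 ± 0.14 (adjusted p = 0.00635) in TAK1-deleted and -2.14 ± 0.14 (adjusted p = 1.03e-08) in wild type cells. The TAK1-deleted value was not called without replicate 2 of 24 h (adjusted p = 0.0564).

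Macrophages express both exporters, and their markers moved in these samples too. The summed linear level of 15 macrophage markers was 32160 to 34412 at 0 h and 4980 to 5362 at 6 h in TAK1-deleted arrays, and 33228 to 35447 and 5415 to 5924 in wild type arrays. Of the 15, 14 fell at 6 h in TAK1-deleted and 12 in wild type cells. At 24 h the sum was 18420 to 20545 in TAK1-deleted and 6973 to 7790 in wild type arrays, with 12 of 15 markers higher and 0 lower in TAK1-deleted cells. Their part in the course of Abca1 and Abcg1 was not tested.

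The fatty acid enzymes included genes that rose and genes that fell. Of 9, 1, 2, 3 and 3 rose at 1, 3, 6 and 24 h in TAK1-deleted cells while 0, 4, 3 and 2 fell. Of all genes 9.1%, 19.6%, 18.5% and 14.9% rose and 10.2%, 22.1%, 17.3% and 12.7% fell at these times in TAK1-deleted cells. In wild type cells 1, 3, 2 and 6 of the 9 rose and 1, 2, 0 and 2 fell, where 10.6%, 20.9%, 24.1% and 23.6% of all genes rose and 13.9%, 23.2%, 19.1% and 20.2% fell. The share of the 9 that rose at 1, 3, 6 and 24 h was thus 11.1%, 22.2%, 33.3% and 33.3% in TAK1-deleted and 11.1%, 33.3%, 22.2% and 66.7% in wild type cells. Their median change at 6 h was -0.26 in TAK1-deleted and 0.12 in wild type cells, and at 24 h it was 0.33 and 0.86. Set against the sterol enzymes, the difference of the medians (sterol minus fatty acid) at 1, 3, 6 and 24 h was 0.10, 0.42, 1.62 and 0.71 in TAK1-deleted and 0.21, 0.51, 1.48 and 0.37 in wild type cells. Taken array by array against the 0 h mean, that difference at 6 h was 1.48 and 1.67 in TAK1-deleted and 1.33 and 1.46 in wild type cells, and at 24 h it was 0.71 and 0.88 in TAK1-deleted and 0.24 and 0.50 in wild type cells. The 24 h value in wild type cells was 0.19 without replicate 1 of 0 h and 0.24 without replicate 2 of 24 h. This contrast of medians is a description and carries no test.

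**Figure D3:**
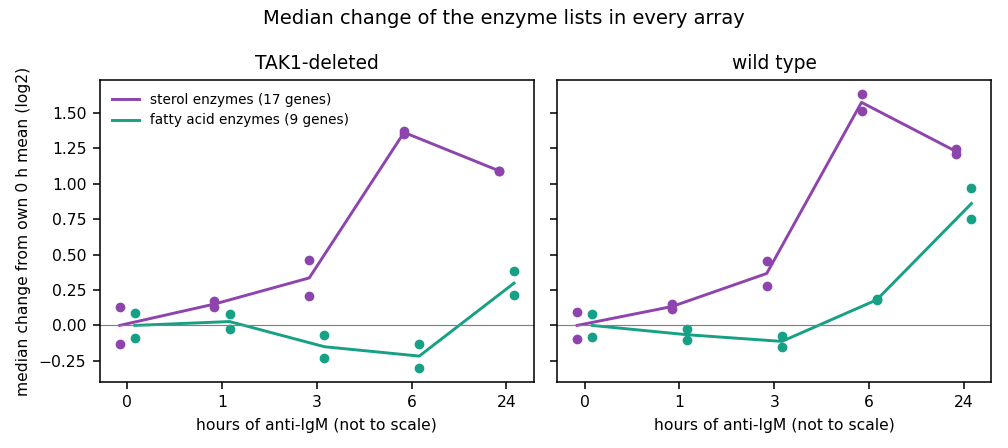
Median log2 change from the genotype's own 0 h mean over the 17 sterol enzymes (purple) and 9 fatty acid enzymes (green) in every array (points, lines through the mean of 2), TAK1-deleted left and wild type right, at 0, 1, 3, 6 and 24 h (not to scale). Sterol enzymes stand highest at 6 h (1.35 and 1.37 in TAK1-deleted, 1.51 and 1.63 in wild type arrays), and fatty acid enzymes at 24 h (0.38 and 0.21 in TAK1-deleted, 0.97 and 0.75 in wild type arrays).

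Fasn, the synthase that builds palmitate, rose early in both genotypes. It read 10.75 and 10.69 at 0 h, 10.80 and 10.69 at 1 h, 12.10 and 12.20 at 3 h, 12.00 and 11.98 at 6 h, then 11.15 and 11.03 at 24 h in TAK1-deleted cells. Fasn in wild type cells was 10.89 and 10.65 at 0 h, 10.80 and 10.67 at 1 h, 12.10 and 12.10 at 3 h, 12.24 and 12.13 at 6 h, then 11.92 and 11.79 at 24 h. The 1 h arrays lay within or next to the 0 h range, those at 3 and 6 h were all above it, and at 24 h the TAK1-deleted pair had come down to 11.15 or lower while the wild type pair stood at 11.79 or above. The rise at 3 h was 1.43 ± 0.11 (adjusted p = 4.99e-08) in TAK1-deleted and 1.33 ± 0.11 (adjusted p = 8.83e-08) in wild type cells. At 24 h it was 0.37 ± 0.11 (adjusted p = 0.017) in TAK1-deleted and 1.08 ± 0.11 (adjusted p = 7.49e-07) in wild type cells, and the TAK1-deleted value was not called without replicate 1 of 24 h (adjusted p = 0.142) or replicate 2 of 0 h (0.0959).

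Acaca, acetyl-CoA carboxylase, supplies Fasn with malonyl-CoA. TAK1-deleted arrays had Acaca at 9.48 and 9.40 at 0 h, 9.53 and 9.58 at 1 h, 10.22 and 10.44 at 3 h, 10.49 and 10.68 at 6 h, then 10.06 and 9.95 at 24 h. Wild type Acaca was 9.32 and 9.17 at 0 h, 9.21 and 9.14 at 1 h, 10.23 and 10.33 at 3 h, 10.60 and 10.66 at 6 h, then 10.77 and 10.57 at 24 h. Both genotypes had risen by 3 h, and at 24 h the wild type pair overlapped its 6 h pair while the TAK1-deleted pair was below its own. At 6 h the rise was 1.14 ± 0.12 (adjusted p = 2.55e-06) in TAK1-deleted and 1.38 ± 0.12 (adjusted p = 2.25e-07) in wild type cells, and the other probe set changed by 0.98 and 1.35. From 6 to 24 h Acaca fell by 0.57 ± 0.12 in TAK1-deleted cells (adjusted p = 0.00349), a call lost without replicate 2 of 6 h (0.0571), and read 0.04 ± 0.12 (adjusted p = 0.874) in wild type cells. From 6 to 24 h Fasn fell too, at -0.90 ± 0.11 in TAK1-deleted and -0.33 ± 0.11 in wild type cells, the second call lost without any 1 of the 4 arrays it compares (adjusted p up to 0.261). Over this interval 5 of the 33 genes were called in TAK1-deleted cells (18.9% of all genes) and 10 in wild type cells (19.4%), and with the replicate block 16 were called in TAK1-deleted cells (35.7%).

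Acly, which splits citrate into cytosolic acetyl-CoA for both pathways, rose at 24 h by 0.81 ± 0.14 (adjusted p = 0.000388) in TAK1-deleted and 0.86 ± 0.14 (adjusted p = 0.000115) in wild type cells. Elovl6, which lengthens the product of Fasn, read -0.88 ± 0.20 (adjusted p = 0.00186) at 3 h in TAK1-deleted cells and -0.11 ± 0.20 (adjusted p = 0.681) in wild type cells. At 24 h Elovl6 rose in wild type cells, by 0.67 ± 0.20 (adjusted p = 0.0117). That call was lost without replicate 1 of 24 h or replicate 2 of 0 h. The stearoyl desaturase Scd1 lay between 13.01 and 13.60 in all arrays and read -0.38 ± 0.10 (adjusted p = 0.0114) at 24 h in TAK1-deleted and -0.38 ± 0.10 (adjusted p = 0.00727) in wild type cells. Each of these calls was lost without replicate 1 of 0 h (adjusted p = 0.089 and 0.0696) or replicate 2 of 24 h (0.11 and 0.0918). Its relative Scd2 fell.

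Scd2 read 11.83 and 11.47 at 0 h, 11.26 and 10.78 at 1 h, 10.34 and 9.68 at 3 h, 10.79 and 10.45 at 6 h, then 11.24 and 10.93 at 24 h in TAK1-deleted cells. Wild type Scd2 was at 11.84 and 11.49 at 0 h, 11.35 and 10.88 at 1 h, 10.69 and 10.29 at 3 h, 11.29 and 11.03 at 6 h, then 11.68 and 11.39 at 24 h. The lowest pair of each genotype was that of 3 h, and the 24 h arrays overlapped 1 h or 0 h arrays again. The change at 3 h was -1.64 ± 0.25 (adjusted p = 6.35e-05) in TAK1-deleted and -1.17 ± 0.25 (adjusted p = 0.0011) in wild type cells. Across both genotypes replicate 1 was above replicate 2 at every time. With the replicate block the 6 h change in wild type cells, -0.50, was also called (adjusted p = 8.25e-05).

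Fads1 and Fads2, the desaturases of polyunsaturated fatty acids, stand side by side on chromosome 19, and Fads2 at 0 h had the largest difference between the genotypes that any of the 33 genes had at any time. Fads2 read 10.59 and 10.17 at 0 h, 10.35 and 9.92 at 1 h, 9.42 and 8.88 at 3 h, 9.41 and 9.18 at 6 h, then 9.60 and 9.35 at 24 h in TAK1-deleted cells. Wild type cells had Fads2 at 8.49 and 8.52 at 0 h, 8.48 and 8.10 at 1 h, 7.81 and 7.96 at 3 h, 8.69 and 8.46 at 6 h, then 9.95 and 9.71 at 24 h. The TAK1-deleted arrays were all above the wild type arrays of the same time at 0, 1, 3 and 6 h, and below them at 24 h. Against its own 0 h, Fads2 at 24 h fell by 0.91 ± 0.21 in TAK1-deleted cells (adjusted p = 0.00382; 0.0576 without replicate 1 of 0 h) and rose by 1.33 ± 0.21 (adjusted p = 7.74e-05) in wild type cells. It was the sole gene of the 33 called in opposite directions in the 2 genotypes.

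Fads1 read 10.00 and 9.82 at 0 h, 9.57 and 9.54 at 1 h, 9.25 and 8.97 at 3 h, 9.20 and 9.16 at 6 h, then 10.39 and 10.12 at 24 h in TAK1-deleted cells. Its wild type values were 9.32 and 9.22 at 0 h, 8.71 and 8.69 at 1 h, 8.69 and 9.12 at 3 h, 9.06 and 9.29 at 6 h, then 10.82 and 10.57 at 24 h. Both genotypes were lowest between 1 and 6 h and higher at 24 h, with the TAK1-deleted arrays above the wild type at 0 and 1 h and below them at 24 h. From 6 to 24 h Fads1 rose by 1.08 ± 0.16 (adjusted p = 0.000161) in TAK1-deleted and 1.52 ± 0.16 (adjusted p = 4.38e-06) in wild type cells. Against 0 h, the change at 24 h was 0.35 ± 0.16 (adjusted p = 0.124) in TAK1-deleted and 1.43 ± 0.16 (adjusted p = 2.47e-06) in wild type cells, and with the replicate block the TAK1-deleted value was called (adjusted p = 0.0462).

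Elovl5 lengthens polyunsaturated fatty acids in the same pathway as these desaturases. TAK1-deleted arrays had Elovl5 at 11.46 and 11.18 at 0 h, 12.03 and 11.84 at 1 h, 11.46 and 11.24 at 3 h, 11.08 and 11.02 at 6 h, then 11.13 and 11.10 at 24 h. Wild type arrays had it at 11.66 and 11.65 at 0 h, 12.63 and 12.54 at 1 h, 12.30 and 12.14 at 3 h, 11.73 and 11.83 at 6 h, then 11.20 and 11.19 at 24 h. Both genotypes were highest at 1 h, and the TAK1-deleted arrays were below the wild type at every time, by little at 24 h. It rose at 1 h by 0.62 ± 0.12 (adjusted p = 0.00105) in TAK1-deleted and 0.93 ± 0.12 (adjusted p = 1.66e-05) in wild type cells. By 24 h Elovl5 had fallen below 0 h in wild type cells, at -0.46 ± 0.12 (adjusted p = 0.00393).

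**Figure D4:**
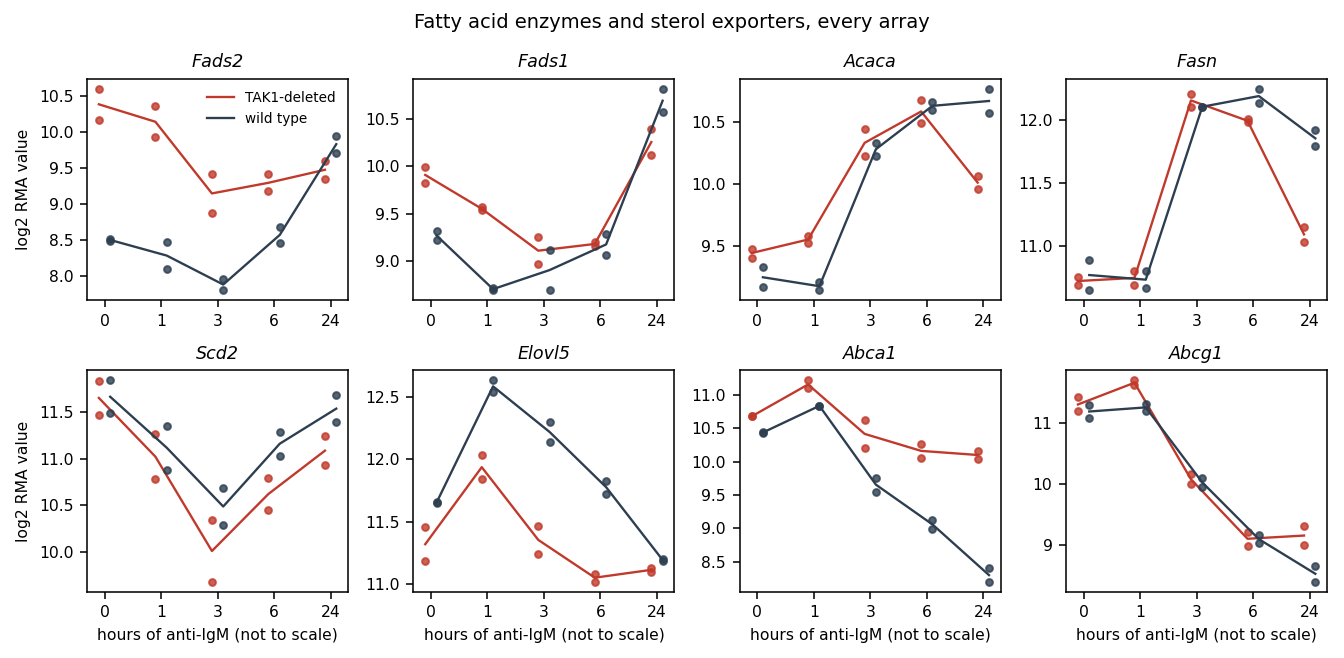
Log2 RMA value of 6 fatty acid enzymes and the exporters Abca1 and Abcg1 in every array against hours of anti-IgM (times not to scale), TAK1-deleted in red and wild type in blue; points are arrays and lines join the mean of 2. The Fads2 lines cross between 6 and 24 h, Fasn and Acaca part at 24 h, and Abca1 of the TAK1-deleted cells stays at 10.04 or above while the wild type arrays reach 8.20.

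Before stimulation, 4 of the 33 genes differed between TAK1-deleted and wild type cells, against 2.32% of all genes: 2 were higher and 2 lower in TAK1-deleted cells, where 1.5% and 0.819% of all genes were. Fads2 was higher in TAK1-deleted cells by 1.88 ± 0.21 (adjusted p = 5.97e-05) and Fads1 by 0.64 ± 0.16 (adjusted p = 0.0456). Cyp51 was lower, at -0.92 ± 0.19 (adjusted p = 0.0121) and Msmo1 at -0.70 ± 0.16 (adjusted p = 0.025). Fads2 held in every alternative setting tried. Cyp51 was lost without replicate 1 of the wild type (0.175) or replicate 2 of the TAK1-deleted cells (0.149), Msmo1 without either of these (0.255 and 0.23) or wild type replicate 2 (0.0583), and Fads1 without any 1 of the 4 arrays. The replicate block gave 6 called genes, 2 higher and 4 lower (6.99% of all genes), the gains being Hmgcs1 at -0.44 (adjusted p = 0.0186) and Elovl5 at -0.33 (0.0199). Of the 17 sterol enzymes, 15 had the lower mean in TAK1-deleted cells, with a median difference of -0.13 beside 0.01 for all genes. The share of all genes with the lower mean is not given.

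Fads3, the neighbour of Fads2 and no member of the set, was higher in TAK1-deleted cells at 0 h too, by 1.30 ± 0.20 (adjusted p = 0.00144), so that 3 neighbouring protein-coding genes in the RefSeq order were all higher in TAK1-deleted cells. Erythroid markers differed between the genotypes as well. All 10 erythroid markers with a probe set, of 12 listed, were higher in TAK1-deleted cells at 0, 1 and 3 h and 8 of 10 at 6 h, with summed linear levels of 17512 to 21003 in TAK1-deleted and 6049 to 6189 in wild type arrays at 0 h, and 1458 to 1505 and 1132 to 1315 at 24 h. Markers of NK cells were lower, 5 of 8 at 0 h, with sums of 3227 to 3783 in TAK1-deleted and 6310 to 7400 in wild type arrays, and of 7 T cell markers 3 were lower at 0 h and 3 higher at 24 h. The part of any of these in the genotype differences at 0 to 6 h was not tested.

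At 1 h, 3 genes differed (4.28% of all genes): Fads2 by 1.85 ± 0.21 (adjusted p = 4.26e-05), Fads1 by 0.85 ± 0.16 (adjusted p = 0.00422) and Elovl5 by -0.65 ± 0.12 (adjusted p = 0.00292), the last not called without replicate 2 of the TAK1-deleted cells (0.0509). Fads1 at 1 h was not called when only the arrays of that time were fitted (0.0503), and Fads2 held throughout. At 3 h, 3 differed (2.71%): Fads2 by 1.26 ± 0.21 (adjusted p = 0.00251), Elovl5 by -0.87 ± 0.12 (adjusted p = 0.000483) and Abca1 by 0.76 ± 0.14 (adjusted p = 0.00694). Abca1 at 3 h was lost without wild type replicate 1 (0.112) or TAK1-deleted replicate 2 (0.114), and none of the 3 was called when only the arrays of that time were fitted. At 6 h, 2 differed (2.53%), Abca1 by 1.10 ± 0.14 (adjusted p = 0.000391) and Elovl5 by -0.73 ± 0.12 (adjusted p = 0.00239). With the replicate block 12, 6 and 11 genes were called at 1, 3 and 6 h, against 12.9%, 8.31% and 12.2% of all genes. The genes gained at 6 h included 6 sterol enzymes, all lower in TAK1-deleted cells, of which Lss read -0.43 (adjusted p = 0.00903 with the block, 0.298 without).

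At 24 h, 11 genes differed, against 12.2% of all genes: 9 were lower and 2 higher in TAK1-deleted cells, where 5.18% of all genes were lower and 7.04% higher. The largest difference was that of Abca1, 1.80 ± 0.14 (adjusted p = 1.15e-06). Fasn was lower, at -0.76 ± 0.11 (adjusted p = 0.000216) and Acaca at -0.66 ± 0.12 (adjusted p = 0.00214). These 3 held in every alternative setting. Abcg1 was higher by 0.63 ± 0.15 (adjusted p = 0.0102), a call lost without TAK1-deleted replicate 1 (0.139) or wild type replicate 2 (0.0923).

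The other 7 genes that differed at 24 h were of sterol synthesis and transport. Lanosterol synthase, Lss, which closes the sterol rings, read 8.89 and 8.56 at 0 h, 8.70 and 8.42 at 1 h, 9.06 and 8.93 at 3 h, 10.08 and 10.10 at 6 h, then 9.88 and 9.53 at 24 h in TAK1-deleted cells. Lss in wild type cells was 8.97 and 8.56 at 0 h, 8.64 and 8.37 at 1 h, 8.97 and 8.81 at 3 h, 10.59 and 10.46 at 6 h, then 10.52 and 10.26 at 24 h. The genotypes overlapped at 0, 1 and 3 h and were apart at 6 and 24 h, when the difference was -0.69 ± 0.18 (adjusted p = 0.0179). Sc5d, a sterol desaturase, had 9.50 and 9.07 at 0 h, 10.40 and 10.08 at 1 h, 10.07 and 9.87 at 3 h, 10.40 and 10.25 at 6 h, then 10.04 and 9.89 at 24 h in TAK1-deleted cells. Wild type Sc5d had 9.73 and 9.53 at 0 h, 10.62 and 10.36 at 1 h, 10.08 and 10.01 at 3 h, 10.69 and 10.78 at 6 h, then 10.68 and 10.38 at 24 h. Its 24 h pairs were apart, by -0.57 ± 0.17 (adjusted p = 0.0366).

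The differences at 24 h of the remaining 5 genes were -0.75 ± 0.22 (adjusted p = 0.0382) for Idi1, -0.56 ± 0.16 (adjusted p = 0.029) for Msmo1, -0.52 ± 0.15 (adjusted p = 0.0283) for Hmgcs1, -0.51 ± 0.15 (adjusted p = 0.0396) for Sqle and -0.45 ± 0.13 (adjusted p = 0.0362) for Stard4. All 7 were lost without wild type replicate 1 of 24 h or without TAK1-deleted replicate 2 of 24 h (adjusted p of 0.177 to 0.356 and 0.207 to 0.308), and 4 genes were called over the whole set without the first of these arrays. With the replicate block all 7 were called, and 17 of 33 in all (28.8% of all genes), with Cyp51 (0.00552), Fdps (0.0128) and Hsd17b7 (0.001) among those gained. Of the 17 sterol enzymes 15 had the lower mean in TAK1-deleted cells, a count for which the share of all genes is not given. The exceptions were Mvk and Tm7sf2, whereas at 0 h they were Nsdhl and Tm7sf2. The median difference of the 17 was -0.40, beside 0.0003 for all genes. Neutrophil and macrophage markers stood higher in TAK1-deleted cells at 24 h, 8 of 8 and 12 of 15, with neutrophil sums of 8284 to 8522 in TAK1-deleted and 1716 to 1764 in wild type arrays. Their part in the 24 h differences was not tested.

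Whether the response itself differed was tested as the change from 0 h in TAK1-deleted cells minus that in wild type cells. At 1, 3 and 6 h limma called 0 of the 33 genes, against 0.109%, 0.0585% and 0.284% of all genes. An unadjusted p below 0.05, for which the share of all genes is not given, was found for 0, 5 and 5 of the 33. With the replicate block 0, 2 and 4 were called, the last 2 counts against 1.95% and 6.45% of all genes. These 4 at 6 h were Abca1 (adjusted p = 0.00354), Fads2 (0.00101), Scd1 (0.0284) and Scd2 (0.0193).

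At 24 h 5 genes differed in their response, against 8.66% of all genes, and all 5 held in every alternative setting. Fads2 had the largest difference, -2.23 ± 0.29 (adjusted p = 0.000207), followed by Abca1 at 1.56 ± 0.20 (adjusted p = 0.000187) and Fads1 at -1.08 ± 0.22 (adjusted p = 0.00597). Acaca differed by -0.85 ± 0.17 (adjusted p = 0.00513) and Fasn by -0.71 ± 0.15 (adjusted p = 0.00692). These are 4 of the 9 fatty acid enzymes and 1 of 3 transport genes. None of the 17 sterol enzymes was called, with values of -0.65 (Lss, adjusted p = 0.141) to 0.35 (Cyp51, 0.576). Of the 17, 1 had an unadjusted p below 0.05, a threshold for which the share of all genes is not given. With the replicate block 10 of the 33 were called (22% of all genes), among them the sterol enzymes Lss (0.00293), Hsd17b7 (0.0244) and Sqle (0.0276), each with the smaller rise in TAK1-deleted cells. From 6 to 24 h the change of 1 gene differed (3.87% of all genes), Elovl5 by 0.65 ± 0.16 (adjusted p = 0.0346), a call lost without any 1 of the 8 arrays, and 8 were called with the replicate block (10.6%).

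Genes of the surrounding pathways were described by list, to be read against the 18.5% of all genes that rose and 17.3% that fell at 6 h in TAK1-deleted cells, and the 24.1% and 19.1% in wild type cells. Of 8 measured genes for SREBP processing and trafficking, 3 rose and 0 fell at 6 h in TAK1-deleted cells (median change 0.36) and 4 rose and 1 fell in wild type cells (0.41), where the medians of all genes were 0.06 and 0.05. They include the COPII GTPases Sar1a (0.64 ± 0.13 in TAK1-deleted, 0.85 ± 0.13 in wild type cells) and Sar1b (0.43 and 0.68), which drive the vesicles that carry Scap, and Paqr3, a Golgi tether of Scap (0.65 and 0.53). Of 11 LXR and oxysterol genes, 0 rose and 5 fell in TAK1-deleted (median -0.36) and 1 rose and 5 fell in wild type cells (-0.45). Cyp27a1, which makes an oxysterol, fell in both, at -2.63 ± 0.18 in TAK1-deleted and -3.25 ± 0.18 in wild type cells. The LXR target Mylip stood at -1.84 ± 0.11 and -1.90 ± 0.11, and the LXR gene Nr1h3 at -1.80 ± 0.20 and -1.44 ± 0.20. At 24 h 4 of the 11 were higher and 0 lower in TAK1-deleted than in wild type cells, where 7.04% of all genes were higher and 5.18% lower, with Nr1h3 at 1.07 ± 0.20 (adjusted p = 0.00184). The macrophage markers moved the same way at both times, with the sums given above, and their part was not tested.

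For the branches that use sterol intermediates the shares of all genes are again 18.5% up and 17.3% down at 6 h in TAK1-deleted, and 24.1% and 19.1% in wild type cells. Of 16 isoprenoid genes, 4 rose and 0 fell at 6 h in TAK1-deleted (median 0.23) and 6 rose and 0 fell in wild type cells (0.31), with the prenyl protease Rce1 at 0.77 and 0.96. Of 11 genes of sterol esters, uptake and lysosomal export, 1 rose and 2 fell in TAK1-deleted (median -0.24) and 2 rose and 3 fell in wild type cells (-0.23). Tmem97, a sterol-responsive membrane protein, rose by 1.50 ± 0.11 (adjusted p = 3.91e-08) in TAK1-deleted and 2.24 ± 0.11 (adjusted p = 4.51e-10) in wild type cells and differed between the genotypes at 24 h by -0.64 ± 0.11 (adjusted p = 0.00107). Lipa, the lysosomal acid lipase, fell, at -0.68 ± 0.19 in TAK1-deleted and -0.61 ± 0.19 in wild type cells.

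Genes that feed or use fatty acids rose and fell, read against the same shares of all genes (18.5% up and 17.3% down in TAK1-deleted, 24.1% and 19.1% in wild type cells). Of 10 for acetyl-CoA and NADPH supply, 2 rose and 4 fell at 6 h in TAK1-deleted (median 0.17) and 5 rose and 1 fell in wild type cells (0.32). The citrate carrier Slc25a1 rose by 0.91 in TAK1-deleted and 1.32 in wild type cells, and the NADPH-forming Idh1 fell, at -1.12 ± 0.17 in TAK1-deleted and -1.87 ± 0.17 in wild type cells. Of 13 other genes of fatty acid synthesis, 5 rose and 2 fell in TAK1-deleted (median 0.17) and 6 rose and 0 fell in wild type cells (0.45), among them the elongation reductase Hsd17b12 at 0.72 and 1.09. Of 20 glycerolipid genes, 7 rose and 3 fell in TAK1-deleted (median 0.18) and 10 rose and 3 fell in wild type cells (0.37), with choline kinase, Chka, at 1.21 and 0.95. Of 17 genes of fatty acid oxidation, 3 rose and 4 fell in TAK1-deleted (median -0.14) and 2 rose and 5 fell in wild type cells (-0.22), with Cpt1a, the gate to mitochondrial oxidation, at -0.75 and -1.14. In TAK1-deleted cells the oxidation counts are about the shares of all genes.

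Members differed in how closely they followed the pathway as a whole. Over the 10 group means, which share libraries, the correlation of a sterol enzyme with the mean of the other sterol enzymes ran from 0.24 (Tm7sf2) to 0.97 (Hsd17b7). Among the fatty acid enzymes it ran from -0.64 (Scd1) to 0.85 (Acly), with Acaca at 0.81, Fasn at 0.63 and Fads2 at -0.07. Abcg1 had -0.93 and Srebf1 had 0.03. Outside all lists, the genes whose group means were most like the mean sterol profile were Lrp11 (0.98), Atp10a (0.97), Psmg4 (0.97), Snd1 (0.96), Cwc15 (0.96), Bcat1 (0.96), Nlrc5 (0.96) and Gm8096 (0.95). These values describe likeness over 10 groups and carry no test.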

How the data were processed

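RNA of 20 samples of splenic B cells was hybridised to Affymetrix arrays, 2 in each of 10 groups (TAK1-deleted and wild type, 5 times). The deposited log2 values of 35556 probe sets, 3.64 to 14.68, are RMA summaries; per the submitters' processing notes they were made with Affymetrix Expression Console 1.0. A genome build is not given in the sources used here. Array medians were 7.37 to 7.52. Arrays have no read depth, so precision depends on their number (median SE of a difference 0.161).

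Probe sets that reached the overall median, 7.45, in 2 or more arrays were kept (20326). GEO's platform annotation gave 1 symbol to 21789 probe sets, several to 1621 (left unnamed), and did not list 12146; 21698 of the named matched RefSeq. The brightest probe set stood for a gene, which left 11968 genes. limma 3.58.1 (R 4.3.3) was fitted to all 20 arrays on group means with an intensity trend, 10 residual degrees of freedom, and Benjamini-Hochberg adjustment over all genes at 0.05 in each of 20 comparisons. The procedure was run on simulated data with independent noise. That simulation lacked the shared deviation of same-numbered arrays described below, and so does not check the calls under it.

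The members, the 14 lists of pathway genes and cell type markers, and the tests were chosen with earlier results of these data known. Values per array are given for members with the largest change against 0 h in each role (6 sterol enzymes, 2 regulators, 2 transport genes, 4 fatty acid enzymes) and for members called between genotypes. Named genes of other lists come from the 3 with the largest called changes at 6 h in either genotype and 2 at 24 h, apart from Fads3 at 0 h and Nr1h3 at 24 h, and 8 further genes by likeness to the sterol profile. Of 196 listed symbols, 180 had a probe set. Marker levels are sums of 2 raised to the log2 value.

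The labels number the arrays of each group 1 and 2 without saying what a number marks. Arrays of the same number deviated from their group means together in all 45 pairs of groups (correlation 0.19 to 0.77, median 0.54), so a fit with the number as a block was made as an alternative. The other alternatives were no filter or a stricter one, the mean of a gene's probe sets, median-centred and quantile-normalized arrays, no intensity trend, only the groups compared, and each array left out in turn.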

Additional observations from a re-analysis of the deposited data

Results flagged for a closer look

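The change from 0 h to 24 h differed between the genotypes for 5 of the 33 genes, against 1037 of all 11968. This was a test of the difference itself (limma, adjusted over all genes, 2 arrays a group). On the log2 scale, TAK1-deleted minus wild type, the difference was -2.23 for Fads2 (adjusted p = 0.000207), 1.56 for Abca1 (0.000187), -1.08 for Fads1 (0.00597), -0.85 for Acaca (0.00513) and -0.71 for Fasn (0.00692). Fads2 and Fads1 were already higher in TAK1-deleted cells at 0 h, and neither was called between the genotypes at 24 h. From 6 to 24 h the change differed for Elovl5, by 0.65 (adjusted p = 0.0346), where 463 of all 11968 genes were called. That value lost its call in 12 of 16 alternatives, with adjusted p up to 0.154, and the other 5 lost theirs in none of 16.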

How the results depend on the processing

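Over all alternatives, 2259 values of called genes kept their call, 187 lost it and 0 changed direction. The pathway lists outside the 33 genes were not refitted. With the replicate block no call was lost and the count of genes called became 17 at 1 h in TAK1-deleted and 18 in wild type cells, 6, 12, 6, 11 and 17 between genotypes at 0, 1, 3, 6 and 24 h, 2, 4 and 10 for the response at 3, 6 and 24 h, 16 from 6 to 24 h in TAK1-deleted cells and 8 for the response over that interval. Over all genes the block moved the counts between genotypes to 837, 1544, 995, 1458 and 3442 at 0, 1, 3, 6 and 24 h, against 278, 512, 324, 303 and 1462 without it.

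Between genotypes at 0 h, where 4 genes were called, 2 were called with the stricter filter, with centred arrays and with only the groups compared. At 24 h, 7 were called with no filter and 5 with centred arrays, in place of 11. At 3 h, 0 were called with only those groups. From 6 to 24 h in TAK1-deleted cells, 3 were called with the stricter filter, 12 with quantile normalization and 9 with only the groups compared, in place of 5. For the response over that interval, where 1 was called, 0 were called with no filter, the stricter filter, centred arrays or no trend, 2 with the mean of probe sets, 3 with only the groups compared and 5 with quantile normalization. Quantile normalization gave 16 at 1 h in wild type cells, 9 and 4 between genotypes at 1 and 6 h and 1 for the response at 6 h, and turned the split of all genes called at 6 h between genotypes to 341 higher and 327 lower, from 111 and 192. The sterol minus fatty acid median was 0.324 with quantile normalization at 3 h in TAK1-deleted cells and 0.2574 with the mean of probe sets at 1 h in wild type cells. Centring moved the median of all genes to 0.10 at 24 h in TAK1-deleted cells and to 0.11 and 0.13 at 6 and 24 h in wild type cells. The cause of these shifts was not tested.

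Leaving out each array gave 7 to 9, 18 to 22, 23 to 26 and 21 to 22 called genes at 1, 3, 6 and 24 h in TAK1-deleted cells, and 8 to 9, 17 to 19, 20 to 22 and 25 to 26 in wild type cells. Between genotypes it gave 1 to 3, 2 to 4, 2 to 4, 2 and 4 to 9 at 0, 1, 3, 6 and 24 h, with the lowest counts at 0 and 24 h without replicate 1 of the wild type or without replicate 2 of the TAK1-deleted cells. For the response it gave 0 at 1, 3 and 6 h and 5 at 24 h, and from 6 to 24 h 2 to 5 in TAK1-deleted cells, 5 to 7 in wild type cells and 0 for the response. Shares of all genes are not given beside the counts of these fits and of most other alternatives. A loss particular to the 33 genes thus cannot be told from a general one. The sterol minus fatty acid median ran from 0.09496 to 0.1685, 0.4387 to 0.5323, 1.484 to 1.672 and 0.6851 to 0.9597 at 1, 3, 6 and 24 h in TAK1-deleted cells, and from 0.1266 to 0.2521, 0.3537 to 0.6046, 1.33 to 1.475 and 0.1858 to 0.5469 in wild type cells.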
